A study of Homo sapiens with 6 samples.

Results

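Condensin, cohesin and the SMC5/6 complex are rings built on pairs of structural maintenance of chromosomes (SMC) ATPases. The 10 genes described here are 5 of condensin (SMC2, SMC4, NCAPG, NCAPH and NCAPH2), 3 of cohesin (SMC1A, SMC3 and RAD21) and the SMC5 and SMC6 genes. They were taken as a named list, matched by GENCODE 29 symbol, and all 10 were among the 33890 genes of the deposited table and among the 14380 genes tested. LN229, the cell line used, is an established line from a human glioblastoma. The UDCA group was kept in 800 µM ursodeoxycholic acid (UDCA), a bile acid that is given to patients with cholestasis, for 48 h, and the control group was not. Each group has 3 polyadenylated RNA libraries of 15988951 to 17743022 recovered reads. Both groups are the same line, and no label tells whether replicates are separate cultures. The p-values therefore rest on the spread between libraries, and that spread may be technical.

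In each ring, 2 SMC proteins join at a hinge, and a kleisin subunit closes the ring at their ATPase heads. Condensin compacts chromosomes for mitosis and comes in forms I and II, which share SMC2 and SMC4 and differ in their kleisin and in their HEAT-repeat subunits. Cohesin holds sister chromatids together from S phase to anaphase and also shapes chromatin loops in cells that do not divide. SMC5/6 acts in DNA repair and replication and carries a SUMO ligase subunit.

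Upstream sequence was available from RefSeq (GRCh38.p14) for 8 of the 10 genes, all but NCAPH2 and RAD21. Each stretch shown is 145 bases long and ends with the first 10 bases of the transcript, 5′ to 3′ on the strand of the gene. Where a gene has several annotated starts, the one nearest to the start in GENCODE 29 was taken. The start sites of SMC2, SMC3, SMC4, SMC5, NCAPG and SMC6 lie inside the GENCODE gene. That of SMC6 lies furthest in, at 17753810, where the GENCODE gene reaches 17800242 on the minus strand. They are given for the 4 condensin genes that moved furthest of the 10 and for SMC6, the only one of the 10 that was called higher. Capitals mark TTTGAA, the form of the cell cycle genes homology region seen in many mitotic promoters, on either strand. They also mark the NF-Y box, spelled CCAAT, and 4 forms of the E2F site on either strand. The forms searched were TTCGCGC with its relative TTGGCGC, and TTCCCGC with its relative TTGCCGC, and no others.
NCAPG, chr4:17810844-17810988, plus strand: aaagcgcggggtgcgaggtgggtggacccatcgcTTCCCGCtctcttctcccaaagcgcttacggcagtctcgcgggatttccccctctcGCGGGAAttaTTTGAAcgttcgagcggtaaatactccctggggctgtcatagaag
NCAPH, chr2:96335631-96335775, plus strand: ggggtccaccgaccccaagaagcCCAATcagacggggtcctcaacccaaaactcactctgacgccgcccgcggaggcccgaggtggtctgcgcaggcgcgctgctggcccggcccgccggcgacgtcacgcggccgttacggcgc
SMC2, chr9:104094174-104094318, plus strand: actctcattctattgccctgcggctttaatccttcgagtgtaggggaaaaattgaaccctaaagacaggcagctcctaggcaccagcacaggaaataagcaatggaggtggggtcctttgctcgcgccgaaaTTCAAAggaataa
SMC4, chr3:160399515-160399659, plus strand: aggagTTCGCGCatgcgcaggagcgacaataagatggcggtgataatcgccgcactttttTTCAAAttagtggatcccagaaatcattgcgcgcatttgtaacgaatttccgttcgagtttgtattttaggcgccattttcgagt
SMC6, chr2:17753801-17753945, minus strand: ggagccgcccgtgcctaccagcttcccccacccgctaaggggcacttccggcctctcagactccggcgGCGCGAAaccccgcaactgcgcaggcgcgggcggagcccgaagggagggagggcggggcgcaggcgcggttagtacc

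Within the 300-base windows from which these stretches come (250 bases before the start site and 50 from it on), TTTGAA or its complement occurred in 4 of the 8 genes: NCAPG, SMC2, SMC3 and SMC4. It occurred in 15.2% of all 35116 human windows of that length. In NCAPG the motif began 35 bases before the start site and in SMC4 75 bases before it, and in SMC2 it spanned the start site. In SMC3 it lay 151 bases before the start site. An E2F form was found in NCAPG (2 sites), SMC4, SMC5 and SMC6, and in 12.97% of all windows. NCAPH held neither TTTGAA nor one of the E2F forms but had a CCAAT box (34.6% of all windows) and the related TTTAAA 33 bases into the transcript (12.2% of all windows). SMC1A held none of these motifs. Both strands were searched, no 2 of the marked sites overlap, and a match describes letters only.

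UDCA-treated cells held less condensin RNA, with NCAPG and NCAPH near 0. The cohesin genes fell less than SMC2, SMC4, NCAPG and NCAPH, but SMC1A fell further than NCAPH2 (log2 changes -1.55 and -1.39). SMC5 and SMC6 moved apart. Of the 10 genes 9 were lower and 1 was higher with UDCA (limma, adjusted p under 0.05), where 35.7% of all genes tested were called lower, 45.1% higher and 80.8% in either direction. Scaling by the median ratio of genes, which moves the median gene to 0.0023, gave 5788 lower and 5826 higher genes in place of 5133 and 6491. In all 10 the 3 UDCA libraries lay wholly on 1 side of the 3 control libraries, as they did in 82.8% of genes tested. A call in itself is therefore common in these data, and the sizes set the genes apart from one another. Levels are in FPKM, which divides the reads of a gene by its exon length and by the depth of the library, and are given as mean ± SD (n = 3 in each group), and folds are ratios of those means. Every log2 change is the UDCA mean less the control mean of log2(FPKM + 1), a scale on which genes at low FPKM appear to change less than they do. The median of the 10 changes was -1.47, against 0.095 for all genes tested. On this scale 7 of the 10 fell at least 2-fold, where 12.0% of genes tested did, and 3 (SMC4, NCAPG and NCAPH) at least 8-fold, where 1.38% did. The 10 genes were chosen with earlier results of these data known, and NCAPG and NCAPH entered the test through their control libraries alone. These shares therefore only describe the genes and support nothing further. In bulk RNA, fewer cells that express a gene and less of its RNA per cell cannot be told apart.

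**Figure D1:**
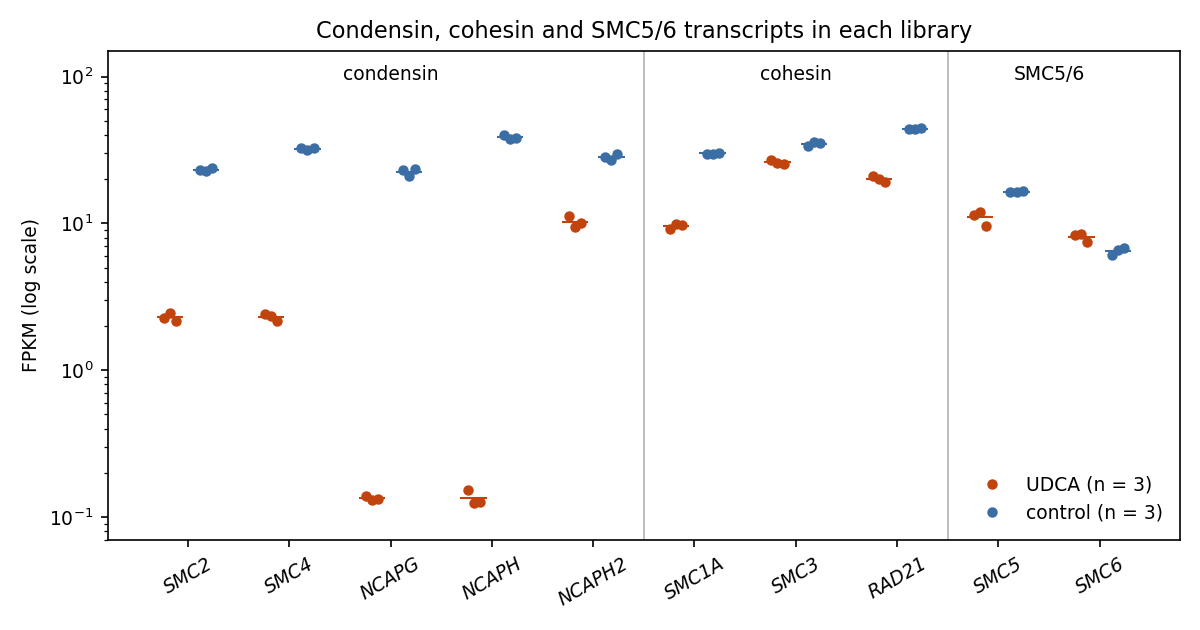
FPKM on a log axis of the 10 genes in each library, UDCA left and control right for each gene; points are libraries and bars their means (n = 3). NCAPG and NCAPH lie between 0.125 and 0.153 FPKM in the UDCA libraries, the other condensin genes and the cohesin genes lie below their control libraries, and only SMC6 lies above them.

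Both SMC genes of condensin fell, SMC4 somewhat further than SMC2. SMC2 (chromosome 9, 104094260 to 104141417, GRCh38) was at 2.28, 2.47 and 2.16 FPKM in the UDCA libraries, against 23.1, 22.6 and 23.98 FPKM in the control libraries. It fell 10.1-fold (log2 change -2.88, SE 0.0464, adjusted p = 8.57e-09, limma). SMC4 (chromosome 3, 160399274 to 160434962), its partner, was at 2.41, 2.34 and 2.17 FPKM with UDCA, against 32.4, 31.7 and 32.6 FPKM in control, and fell 13.97-fold (log2 change -3.33, SE 0.0381, adjusted p = 1.87e-09, limma). Both were low in every UDCA library, at 9.91% and 7.16% of their control means, with no overlap between groups. Of the exon bases of SMC4, 25.6% lie within exons of TRIM59 and IFT80 on the opposite strand, and whether counting used strand is not given in the sources used here. IFT80 averaged 2.40 ± 0.357 FPKM with UDCA, near the 2.31 ± 0.122 FPKM of SMC4 itself, and 3.48 ± 0.0716 FPKM in control. TRIM59 averaged 0.0101 ± 0.00416 FPKM with UDCA and 0.451 ± 0.116 FPKM in control. The level of SMC4 with UDCA and the size of its fall are uncertain for that reason.

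Reads of NCAPH and NCAPG, both subunits of condensin I, were few in treated cells. NCAPH (chromosome 2, 96335787 to 96373845), the kleisin of condensin I, was at 0.153, 0.125 and 0.126 FPKM in the UDCA libraries, on 8, 7 and 7 reads, against 39.8, 37.8 and 38.4 FPKM in the control libraries, on 2169, 2130 and 2233 reads. The ratio of means was 287-fold lower (log2 change -5.13, SE 0.0393, adjusted p = 4.6e-10, limma). NCAPG (chromosome 4, 17810902 to 17844862), a HEAT-repeat subunit that binds DNA together with the kleisin, was at 0.140, 0.131 and 0.132 FPKM with UDCA, on 11 reads in each library, against 23.2, 20.9 and 23.3 FPKM in control, on 1901, 1770 and 2038 reads. It fell 168-fold (log2 change -4.37, SE 0.0550, adjusted p = 2.95e-09, limma). NCAPH stood at 0.348% and NCAPG at 0.597% of the control mean, and each passed the minimum level through its control libraries alone. By limma's voom on recovered reads the log2 changes were -8.08 for NCAPH and -7.33 for NCAPG, since no pseudocount of 1 FPKM enters there. The exons of LCORL, on the opposite strand, cover 33.1% of the exon bases of NCAPG, and LCORL averaged 1.52 ± 0.163 FPKM with UDCA and 1.56 ± 0.0589 FPKM in control.

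NCAPH2 (chromosome 22, 50508216 to 50523472), the kleisin of condensin II, kept far more of its RNA than NCAPH. It stood at 11.3, 9.47 and 10.01 FPKM in the UDCA libraries, against 28.4, 26.8 and 29.9 FPKM in the control libraries, a 2.77-fold fall (log2 change -1.39, SE 0.0664, adjusted p = 1.43e-06, limma). All UDCA libraries were below all control libraries, at 36.1% of the control mean. As a share of the summed FPKM of both kleisin genes, NCAPH took 1.34%, 1.31% and 1.24% in the UDCA libraries and 58.4%, 58.5% and 56.2% in the control libraries. The within-library difference NCAPH minus NCAPH2 in log2(FPKM + 1) averaged -3.31 ± 0.0978 with UDCA and 0.434 ± 0.0730 in control (SD, n = 3 each), a shift of -3.74 (2-sided exact permutation test, p = 0.1, adjusted p = 0.1 over 7 pairs). With 3 libraries in each group, 0.1 is the smallest p that this test can give, so none of the 7 pairs tested in this way can pass 0.05. With a pseudocount of 0.1 the shift was -5.91.

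The 3 further condensin subunits fell too, so that all 8 condensin genes were lower and none higher, with a median log2 change of -3.39. Of all genes tested, 35.7% were called lower. Of the 8, NCAPG and NCAPH passed the minimum level only through their control libraries. NCAPD2, a HEAT-repeat subunit of condensin I, fell 12.6-fold to 5.80 ± 0.148 FPKM with UDCA, against 72.8 ± 1.03 FPKM in control. Its counterparts in condensin II were NCAPD3, at 1.20 ± 0.0286 FPKM with UDCA and 12.2 ± 0.0876 FPKM in control, and NCAPG2, at 1.23 ± 0.0420 FPKM with UDCA and 30.9 ± 1.04 FPKM in control. NCAPG2 fell 25.0-fold and NCAPD3 10.1-fold. Exons of MRPL51 cover 7.49% of the exon bases of NCAPD2, and exons of other genes cover 8.89% of those of NCAPD3. All of these lie on the opposite strand, and whether counting used strand is not given. NCAPG took 9.81% ± 0.127 of the summed FPKM of NCAPG and NCAPG2 with UDCA and 42.1% ± 0.942 in control. NCAPD2 took 82.8% ± 0.318 of NCAPD2 plus NCAPD3 with UDCA and 85.6% ± 0.219 in control, a small shift in which the groups still did not overlap.

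Cohesin genes fell by unequal factors, all smaller than those of SMC2, SMC4, NCAPG and NCAPH. SMC1A fell further than NCAPH2 of condensin, which fell 2.77-fold. SMC1A (X chromosome, 53374149 to 53422728) was at 9.15, 9.85 and 9.71 FPKM in the UDCA libraries, against 29.6, 29.8 and 30.3 FPKM in the control libraries, 3.13-fold lower (log2 change -1.55, SE 0.0334, adjusted p = 3e-08, limma). SMC3 (chromosome 10, 110567691 to 110604636), with which SMC1A forms the cohesin heterodimer, was at 26.98, 25.8 and 25.5 FPKM with UDCA, against 33.6, 35.6 and 35.1 FPKM in control, 1.33-fold lower (log2 change -0.40, SE 0.0330, adjusted p = 2.48e-05, limma). Neither gene overlapped between groups, and for both genes the gap was wider than the range within either group. In control libraries the partners were close in FPKM, with an SMC1A over SMC3 ratio of 0.862 ± 0.0215, whereas in UDCA libraries the ratio was 0.367 ± 0.0245. The size of this ratio depends on the exon lengths used for both genes, and its fold between groups does not. The shift of SMC1A minus SMC3 in log2(FPKM + 1) was -1.15, the means being -1.36 ± 0.0913 with UDCA and -0.208 ± 0.0352 in control (exact permutation test, adjusted p = 0.1).

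RAD21, the kleisin of cohesin that separase cuts at anaphase, was at 21.1, 19.9 and 19.0 FPKM in the UDCA libraries, against 44.1, 43.6 and 44.9 FPKM in the control libraries. The fall was 2.21-fold (log2 change -1.11, SE 0.0388, adjusted p = 2.94e-07, limma), with no overlap. Exons of other genes, UTP23 among them, cover 14.2% of its exon bases. UTP23 averaged 4.596 ± 0.137 FPKM with UDCA and 5.82 ± 0.490 FPKM in control. NCAPH minus RAD21, the kleisins of condensin I and of cohesin, shifted by -4.02 in log2(FPKM + 1) (-4.21 ± 0.0550 with UDCA, -0.190 ± 0.0383 in control; exact permutation test, adjusted p = 0.1), and by -6.23 with a pseudocount of 0.1.

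The alternative HEAT-repeat subunits of the cohesin ring, STAG1 and STAG2, also fell. STAG1 averaged 4.39 ± 0.111 FPKM with UDCA and 7.42 ± 0.127 FPKM in control (log2 change -0.64, adjusted p = 4.26e-06, limma), with 21.2% of its exon bases inside PCCB. STAG2 averaged 18.1 ± 0.494 FPKM with UDCA and 20.6 ± 0.440 FPKM in control (log2 change -0.18, adjusted p = 0.00117, limma). That small change was -0.29 when libraries were scaled by the median ratio of genes. STAG2 took 80.4% ± 0.648 of the summed FPKM of STAG1 and STAG2 with UDCA and 73.5% ± 0.439 in control. Whether reads of PCCB enter the level of STAG1, and so this share, was not tested. Among the 9 listed ring subunits, germline forms included, 7 were tested, 7 were lower and none higher, with a median of -0.64. Of all genes tested, 35.7% were called lower. Of the 7 ring subunits, 2 passed the minimum level only through control. Those 2 were the germline genes REC8 and STAG3. STAG3 averaged 0.473 ± 0.0289 FPKM with UDCA and 1.45 ± 0.0993 FPKM in control (adjusted p = 6.71e-05, limma), with 32.3% of its exon bases in exons of other genes. REC8 averaged 0.751 ± 0.120 FPKM with UDCA and 1.16 ± 0.151 FPKM in control (adjusted p = 0.0188, limma), and its call was lost without UDCA replicate 3 (adjusted p = 0.0583), without control replicate 1 (0.0604) and when genes at low FPKM were not filtered out (0.0576). The 12 alternatives gave it adjusted p-values of 0.00577 to 0.0604. SMC1B and RAD21L1, the other germline forms, were under the minimum, with 2 reads each in all UDCA libraries and 5 and 2 reads in all control libraries.

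**Figure D2:**
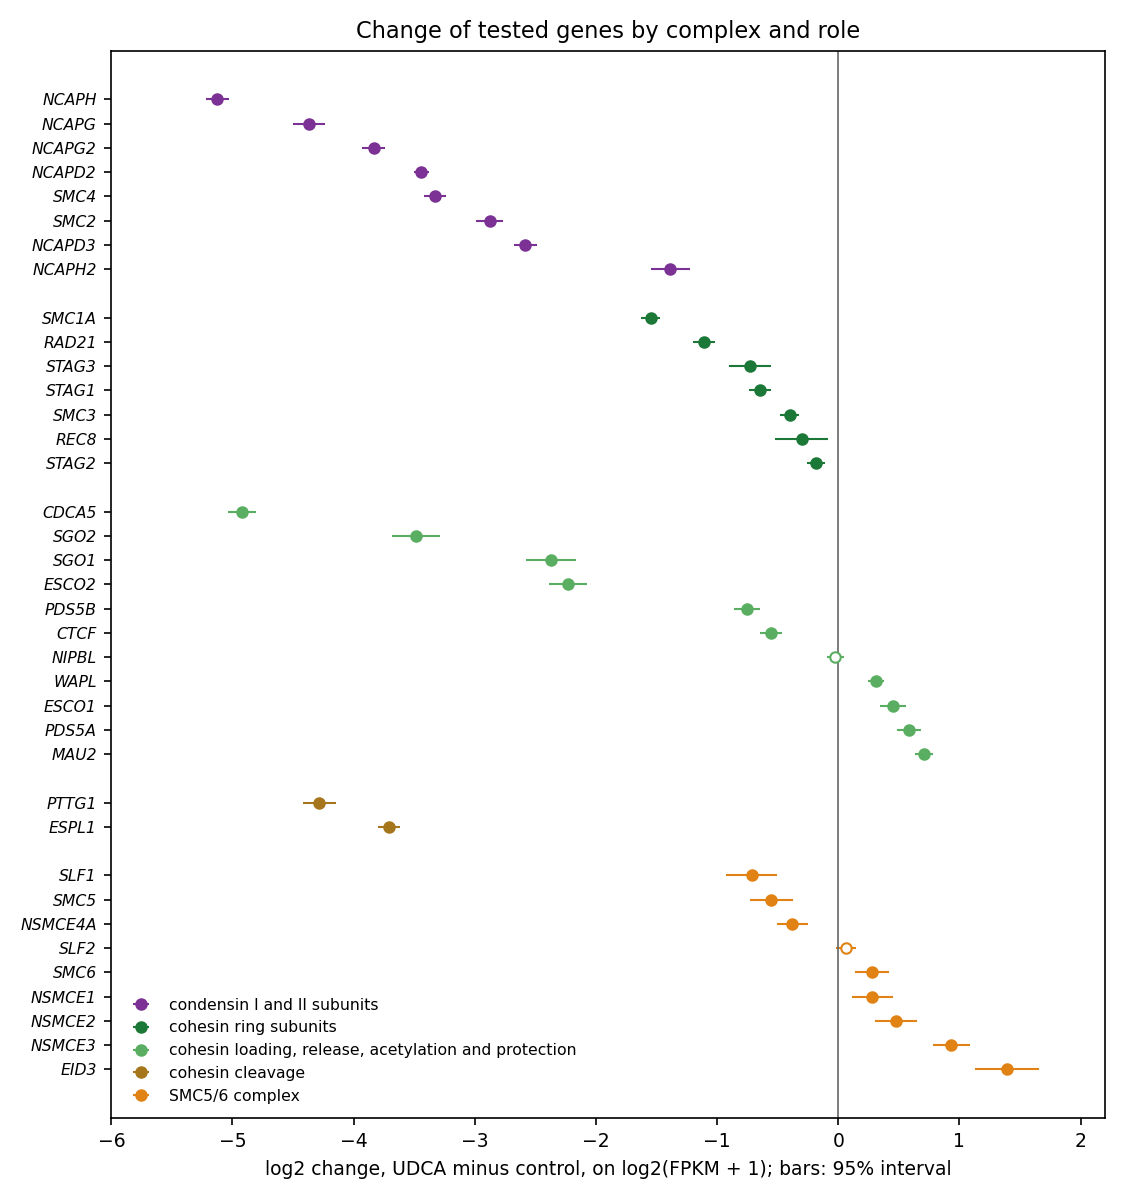
Change of each tested gene, UDCA less control, in log2(FPKM + 1), with 95% intervals from limma; filled points were called at an adjusted p under 0.05 and open points were not. Condensin genes lie between -5.13 and -1.39, cohesin ring genes between -1.55 and -0.18, and SMC5/6 genes on both sides of 0. Factors that act on cohesin also lie on both sides of 0, from -4.92 for CDCA5 to 0.71 for MAU2.

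Genes that act on cohesin moved in both directions. Of 12 listed factors for loading, release, acetylation and protection, 11 were tested, 6 were lower, 4 higher and 1 was not called (median log2 change -0.56). Both directions are common in these data, with 35.7% of all genes tested called lower and 45.1% higher. Of the 11 factors, 4 (CDCA5, ESCO2, SGO1 and SGO2) passed the minimum level only through control. CDCA5, which encodes sororin, the S-phase factor that keeps cohesin on chromatids, averaged 0.350 ± 0.0553 FPKM with UDCA and 39.97 ± 1.54 FPKM in control, a 114-fold fall (adjusted p = 1.14e-09, limma). ESCO2, the acetyltransferase that works at replication forks, averaged 0.0375 ± 0.0193 FPKM with UDCA, on 15 reads in all, and 3.87 ± 0.131 FPKM in control, a 103-fold fall (adjusted p = 1.16e-07, limma). ESCO1, its relative that acts throughout interphase, moved the other way, at 7.31 ± 0.187 FPKM with UDCA and 5.08 ± 0.258 FPKM in control (log2 change 0.45, adjusted p = 7.69e-05, limma).

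The shugoshins SGO1 and SGO2, which guard centromeric cohesin, were both lower in treated cells, and SGO1 was at or near 0 there. SGO2 fell 33.5-fold, with 0.455 ± 0.147 FPKM in the UDCA libraries and 15.3 ± 0.801 FPKM in the control libraries (adjusted p = 4.43e-08, limma). SGO1 had 2 reads in all UDCA libraries and 837 in all control libraries, 406-fold lower for the depth of the libraries, with an exact 95% interval of 112 to 3356 that covers counting error only (adjusted p = 3.35e-07, limma). Exons of SGO1-AS1, on the opposite strand, cover 17.7% of the exon bases of SGO1. Separase, encoded by ESPL1, cleaves cohesin at anaphase, and securin, encoded by PTTG1, holds it inhibited until securin is degraded. Both fell: ESPL1 30.8-fold, to 0.682 ± 0.0254 FPKM with UDCA against 20.96 ± 0.262 FPKM in control (adjusted p = 1.27e-09, limma; it passed the minimum level only through control), and PTTG1 25.3-fold, to 3.13 ± 0.325 FPKM with UDCA against 79.3 ± 1.45 FPKM in control (adjusted p = 3.92e-09, limma). PTTG1 has near-identical copies that can share its reads and is uncertain for that reason; the copy PTTG2 had no reads with UDCA and 2 in control.

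Loading and release factors changed by less than 2-fold, and not in 1 direction. NIPBL, the large subunit of the cohesin loader, averaged 12.9 ± 0.290 FPKM with UDCA and 13.2 ± 0.153 FPKM in control and was not called (adjusted p = 0.482, limma; 95% interval of the log2 change -0.09 to 0.05). Scaling by the median ratio of genes put it at -0.13 (adjusted p = 0.0067) and quantile normalization at -0.13 (adjusted p = 0.00761), so its call depends on the scaling. MAU2, the other loader subunit, was 1.72-fold higher at 11.99 ± 0.0725 FPKM with UDCA, against 6.96 ± 0.184 FPKM in control (adjusted p = 1.13e-06, limma). WAPL, which opens the ring, rose 1.26-fold to 15.5 ± 0.370 FPKM with UDCA, against 12.3 ± 0.124 FPKM in control. The paralogs PDS5A and PDS5B, which bind WAPL and regulate its action, moved in opposite directions: PDS5A averaged 17.7 ± 0.535 FPKM with UDCA and 11.5 ± 0.541 FPKM in control, and PDS5B 3.38 ± 0.0730 FPKM with UDCA and 6.37 ± 0.231 FPKM in control. CTCF, which stops cohesin at loop boundaries, fell 1.54-fold to 6.60 ± 0.197 FPKM with UDCA, against 10.2 ± 0.268 FPKM in control. HDAC8, the deacetylase that recycles SMC3, was under the minimum level in enough libraries not to be tested, at 0.967 ± 0.0834 FPKM with UDCA and 0.871 ± 0.0497 FPKM in control. Those values rest on 1110 reads with UDCA and 1034 in control, divided by a long merged exon length of 22986 bases.

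The SMC pair of SMC5/6 moved in opposite directions and by little. SMC5 (chromosome 9, 70258962 to 70354888) was at 11.4, 11.99 and 9.56 FPKM in the UDCA libraries, against 16.4, 16.3 and 16.7 FPKM in the control libraries, 1.502-fold lower (log2 change -0.55, SE 0.0746, adjusted p = 0.000362, limma). UDCA replicate 3 was the lowest, and no UDCA library reached the control range. SMC6 (chromosome 2, 17663812 to 17800242) was at 8.35, 8.49 and 7.52 FPKM with UDCA, against 6.09, 6.63 and 6.80 FPKM in control, 1.25-fold higher (log2 change 0.28, SE 0.0588, adjusted p = 0.00355, limma). The groups did not overlap, but the gap between them was narrower than the range of the UDCA libraries, and scaling by the median ratio of genes left a change of 0.18 (adjusted p = 0.0237). The shift of SMC6 minus SMC5 was 0.83 in log2(FPKM + 1), with means of -0.388 ± 0.0723 with UDCA and -1.22 ± 0.0657 in control (exact permutation test, adjusted p = 0.1).

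Of the 9 listed SMC5/6 genes, SMC5 and SMC6 among them, all were tested, 3 were lower, 5 higher and 1 not called, with a median log2 change of 0.28. These shares are near those of all genes tested, of which 35.7% were called lower and 45.1% higher. NSMCE3, a subunit of the MAGE family next to the kleisin, rose 2.14-fold, at 8.91, 8.04 and 8.21 FPKM in the UDCA libraries and 3.90, 4.24 and 3.5997 FPKM in the control libraries (adjusted p = 8.33e-06, limma). NSMCE2, the SUMO ligase, rose 1.46-fold to 8.19 ± 0.574 FPKM with UDCA, against 5.59 ± 0.510 FPKM in control. NSMCE1, a RING-domain subunit, rose 1.25-fold to 9.03 ± 0.683 FPKM with UDCA, against 7.25 ± 0.600 FPKM in control, and its log2 change of 0.28 (adjusted p = 0.00812, limma) was 0.18 after median-ratio scaling (adjusted p = 0.0476). NSMCE4A, the kleisin of somatic cells, was lower at 5.32 ± 0.202 FPKM with UDCA and 7.22 ± 0.483 FPKM in control, while EID3, its paralog, was higher at 2.17, 1.80 and 2.21 FPKM with UDCA and 0.0410, 0.158 and 0.307 FPKM in control. EID3 passed the minimum level through the UDCA libraries alone, on 151 reads with UDCA and 13 in control, and by voom on recovered reads its log2 change was 3.74 in place of 1.39. SLF1, which with SLF2 brings SMC5/6 to damaged DNA, averaged 1.62 ± 0.272 FPKM with UDCA and 3.28 ± 0.146 FPKM in control (adjusted p = 0.000217, limma), and SLF2 was not called at 8.26 ± 0.0915 FPKM with UDCA and 7.86 ± 0.255 FPKM in control (adjusted p = 0.138, limma).

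The make-up of SMC transcripts in FPKM differed between the groups. The size of each share depends on the exon length used for each gene. The 6 SMC genes summed to 60.5, 60.95 and 56.6 FPKM in the UDCA libraries and to 141, 143 and 146 FPKM in the control libraries. SMC2 and SMC4 made up 7.76% ± 0.113 of that sum with UDCA and 38.8% ± 0.612 in control. SMC1A and SMC3 made up 60.1% ± 1.86 with UDCA and 45.2% ± 0.580 in control, and SMC5 and SMC6 made up 32.1% ± 1.75 with UDCA and 16.1% ± 0.125 in control. No library of 1 group reached the range of the other for any of the 3 shares. SMC2 minus SMC3 shifted by -2.48 in log2(FPKM + 1), and SMC2 minus SMC5 by -2.32 (exact permutation test, adjusted p = 0.1 for each). Within condensin the shift of SMC2 minus SMC4 was 0.45 (exact permutation test, adjusted p = 0.1). The FPKM ratio of SMC2 to SMC4 was 0.998 ± 0.0546 with UDCA and 0.721 ± 0.0129 in control. That ratio is uncertain, since exons of SMC4 overlap those of TRIM59 and IFT80.

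**Figure D3:**
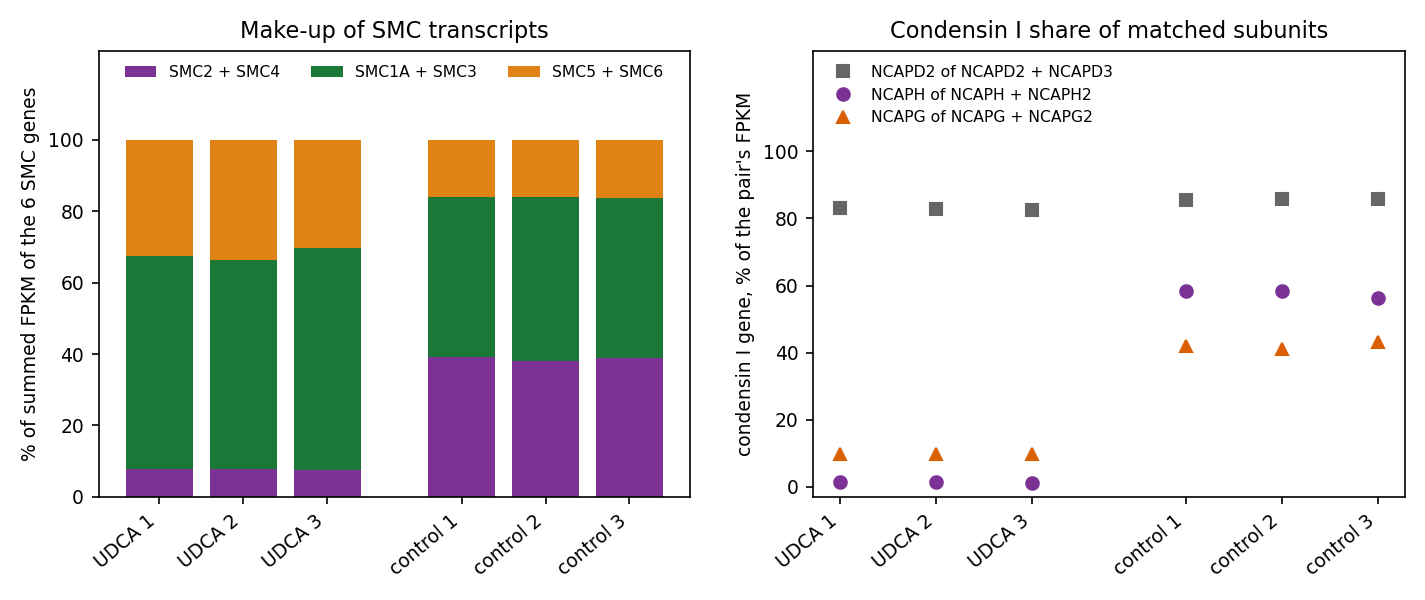
Left, share of the summed FPKM of the 6 SMC genes held by each SMC pair, in each UDCA library and each control library. Right, share of the condensin I gene in the summed FPKM of matched condensin I and II subunits; NCAPH falls to 1.24% to 1.34% in UDCA libraries, while NCAPD2 stays above 80% in every library.

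**Figure D4:**
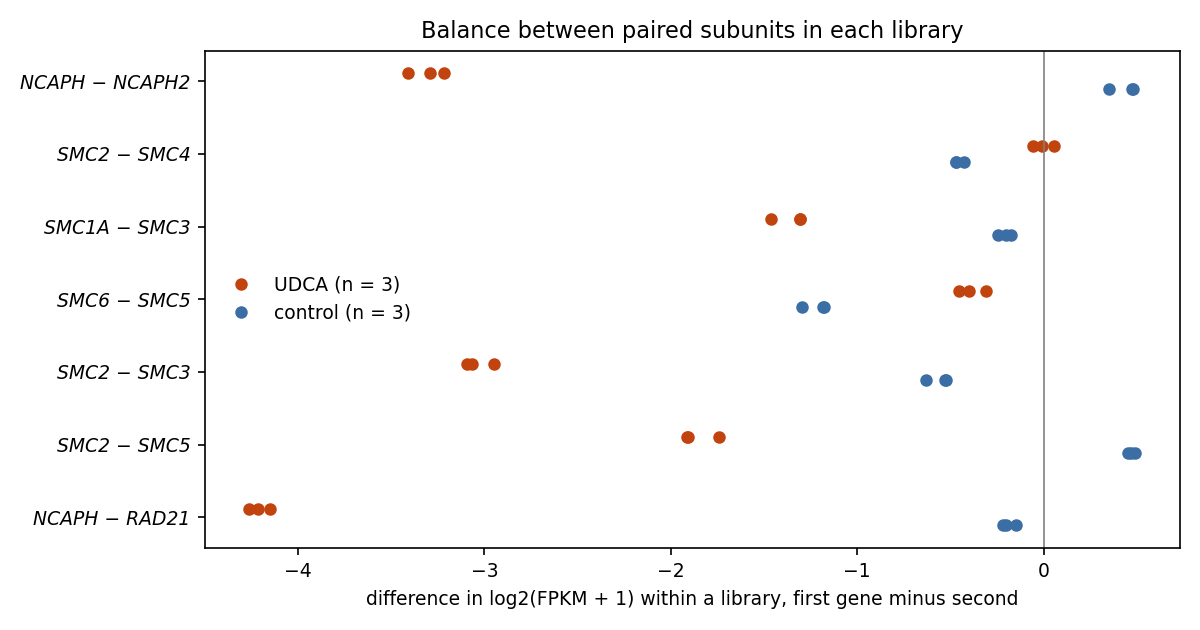
Difference in log2(FPKM + 1) within each library between the first and the second gene of 7 pairs, UDCA above control (n = 3 each). The groups do not overlap in any of the 7 pairs, and the widest gaps are those of NCAPH with RAD21 (shift -4.02) and with NCAPH2 (shift -3.74).

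The order of the levels changed with the treatment. With UDCA it ran SMC3 (26.1 ± 0.797 FPKM), RAD21 (20.01 ± 1.05), SMC5, NCAPH2, SMC1A, SMC6, SMC4, SMC2, NCAPH and NCAPG. In that order SMC5 and NCAPH2, NCAPH2 and SMC1A, SMC4 and SMC2, and NCAPH and NCAPG overlapped in range. In control the order was RAD21 (44.2 ± 0.633 FPKM), NCAPH (38.6 ± 1.02), SMC3, SMC4, SMC1A, NCAPH2, SMC2, NCAPG, SMC5 and SMC6, with overlap between SMC1A and NCAPH2 and between SMC2 and NCAPG. NCAPH stood at rank 9 with UDCA and rank 2 in control, and SMC5 at rank 3 with UDCA and rank 9 in control. Order between genes depends on the exon length used, which merges all annotated exons of a gene (10484 bases for SMC1A and 4275 for SMC3). The fold of a gene between groups does not.

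Genes with a profile like those above were sought among 11245 other protein-coding genes tested, by the root mean square distance over the 6 libraries after centring each gene on its control mean in log2(FPKM + 1). Nearest to NCAPG were PODXL (0.0699), KIF14 (0.0745) and MCM4 (0.0836), and only 4 genes lay within 0.1. KIF14, a mitotic kinesin, averaged 0.0378 ± 0.0323 FPKM with UDCA and 19.95 ± 0.374 FPKM in control, and MCM4, part of the replicative helicase, 0.869 ± 0.0825 FPKM with UDCA and 35.2 ± 0.7002 FPKM in control. PODXL, a sialomucin of the cell surface, averaged 3.13 ± 0.210 FPKM with UDCA and 86.2 ± 1.59 FPKM in control. Nearest to SMC3 were NDST1, FBXW7 and ZC3H13, at 0.0157 to 0.0240, among 803 genes within 0.1, and nearest to SMC5 were LIFR, CCNG1 and TMEM64, at 0.0274 to 0.0333, among 254. The distance is in log2(FPKM + 1), where the pseudocount compresses genes near 0: NCAPG, which passed the minimum level only through control, and its 3 nearest genes have log2 changes of -4.40 to -4.28 on this scale, while their means stand in different ratios. With 2 groups the distance reads mainly the size of that change.

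The labelled cell type was checked against markers. Of 6 glial markers 3 were tested, of which SOX2 and S100B were lower with UDCA and OLIG2 was not called. The 6 summed to 20.2 to 20.7 FPKM in the UDCA libraries and to 359 to 376 FPKM in the control libraries. S100B and SOX2 made up most of those sums. S100B averaged 12.5 ± 0.0593 FPKM with UDCA and 286 ± 10.1 FPKM in control. SOX2 averaged 2.58 ± 0.0887 FPKM with UDCA and 76.97 ± 1.49 FPKM in control. OLIG2 averaged 4.81 ± 0.160 FPKM with UDCA and 4.59 ± 0.509 FPKM in control. GFAP, the classic astrocyte marker, stayed under 1 FPKM in every library, and AQP4 had 1 read in all. Immune, endothelial and epithelial markers each summed to under 1 FPKM in every library. The immune sum rests on 2 of its 3 listed markers, since AIF1 was not among the genes of the deposited table. The 3 neural progenitor and mesenchymal markers, all called lower, summed to 134.7 to 137.7 FPKM in the UDCA libraries and to 374 to 383 FPKM in the control libraries. Among them NES averaged 26.9 ± 0.280 FPKM with UDCA and 148 ± 4.39 FPKM in control, and VIM 65.1 ± 0.801 FPKM with UDCA and 167 ± 1.83 FPKM in control. CD44 averaged 43.9 ± 0.927 FPKM with UDCA and 64.99 ± 0.541 FPKM in control. Of the 3 neuron markers, SYT1 was higher (14.6 ± 0.809 FPKM with UDCA, 4.93 ± 0.195 FPKM in control), SNAP25 was lower (4.28 ± 0.605 FPKM with UDCA, 6.19 ± 0.441 FPKM in control) and RBFOX3 was near 0 in both groups. They summed to 17.7 to 20.4 FPKM with UDCA and to 10.5 to 11.6 FPKM in control. The part of these marker changes in the results above was not tested.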

How the data were processed

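Libraries from polyadenylated RNA, 3 per group, were built with a TruSeq kit, per the labels' protocols. HISAT2, Bowtie2 2.0.6 and GRCh38 are named in the submitters' processing notes. Which program counted reads, whether by strand, and how it treated shared reads is not given in the sources used here. No unit is named for the deposited values, which were inferred to be FPKM: multiplied by exon length (exons merged per gene, GENCODE 29), 100% of them come out as whole reads within 0.01 reads. The whole numbers, read as reads or read pairs, sum to 15988951, 17045218 and 16975081 in UDCA replicates 1 to 3 and to 16639832, 17203507 and 17743022 in control replicates 1 to 3. In a gene of 1 kb, 3 reads are worth 0.169 to 0.188 FPKM, for counting error only.

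A gene entered the test if 3 or more of the 6 libraries had it at 1 FPKM or above. Values were tested as log2(FPKM + 1) with limma-trend (limma 3.58.1, R 4.3.3), group as the only term, 2-sided, Benjamini-Hochberg over the 14380 genes at 0.05. The 10 genes, the pathway lists, the 7 pairs and the motifs were chosen with earlier results of these data known. Every member was named, and any gene of the lists could be. The nearest genes were the 3 at the smallest distance from NCAPG, SMC3 and SMC5. The fit was first tested on simulated data with known changes. At a simulated dispersion of 0.01 it recovered 62 of 62 changes of 4-fold, 58 of 64 of 2-fold and 21 of 64 of 1.5-fold. At 0.001 it recovered 60 of 61, 60 of 64 and 51 of 65. Only 200 genes were changed there, far fewer than the 11624 called in the data. Alternatives were other scalings, another pseudocount, no filter, a replicate block, voom on recovered reads and leaving out each library. Tables and plots used Python 3.11.15, pandas 2.3.3, scipy 1.17.1 and matplotlib 3.10.9.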

Additional observations from a re-analysis of the deposited data

How the results depend on the processing

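The calls of all 10 genes, 9 lower and 1 higher, were the same under all 12 alternatives, 120 of 120 values in direction and side of the threshold. The same held for the counts of the 8 condensin genes (8 lower), the SMC5/6 genes (3 lower, 5 higher) and both cleavage genes. Over the 44 list genes tested, 520 of 528 values kept their direction and call. SLF2, not called, turned to -0.035 with median-ratio scaling and -0.013 with quantile normalization. MCPH1 was called higher with voom (0.18, adjusted p = 0.0327). Genes called over the whole table numbered 11218 to 11381 with a library left out, 11503 with the replicate block and 14451 with no filter. The median gene moved by 0.095 on the log2 scale and by 0.0023 after median-ratio scaling. Same-numbered libraries showed no shared deviation (correlation of deviations -0.0012 to 0.0143 over genes, against -0.0502 to 0.0416 for differently numbered libraries). That cannot tell how replicates were made, and no label gives a pairing, so the replicate block is not read as a paired analysis. Under limma with the replicate block, the 7 pair shifts were as before (-3.74 for NCAPH with NCAPH2, 0.45 for SMC2 with SMC4, -1.15 for SMC1A with SMC3, 0.83 for SMC6 with SMC5, -2.48 for SMC2 with SMC3, -2.32 for SMC2 with SMC5 and -4.02 for NCAPH with RAD21). That fit put all 7 past the threshold, which supports nothing: the pairs were chosen with results known, some share a gene, and NCAPH rests on its control libraries. With a library left out the exact test cannot go below 0.2. Depth limits NCAPH and NCAPG with UDCA, which rest on 22 and 33 reads over 3 libraries.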

Other observations

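Other SMC-type ATPases and the partners of condensin were measured as well. SMCHD1, a noncanonical SMC protein known for silencing of the inactive X chromosome, averaged 10.5 ± 0.332 FPKM with UDCA and 8.95 ± 0.0491 FPKM in control (log2 change 0.21, adjusted p = 0.000968, limma), and 0.11 after median-ratio scaling. RAD50, the SMC-like ATPase of the MRE11 complex, averaged 2.10 ± 0.0699 FPKM with UDCA and 0.711 ± 0.0569 FPKM in control (log2 change 0.86, adjusted p = 1.64e-05, limma). RAD50 passed the minimum level only through the UDCA libraries, and of its exon bases 79.7% lie within other annotated genes on the same strand, so its level is uncertain.

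Of 5 listed partners of condensin, 4 were lower, each near 0 in the UDCA libraries and past the minimum level only through control. Of all genes tested, 35.7% were called lower. TOP2A, the topoisomerase that works beside condensin on mitotic chromosomes, averaged 0.103 ± 0.01004 FPKM with UDCA and 95.7 ± 2.59 FPKM in control. KIF4A, the chromokinesin that binds condensin I, was listed at 0, 0.142 and 0.104 FPKM in the UDCA libraries and at 25.998, 25.98 and 25.6 FPKM in the control libraries. AURKB, a mitotic kinase that phosphorylates condensin I, had 5 reads in all UDCA libraries and 3421 in all control libraries, and CDK1, the kinase of mitotic entry, had 33 reads with UDCA and 7021 in control. MCPH1, which restrains condensin II in interphase, was not called, at 2.58 ± 0.192 FPKM with UDCA and 2.27 ± 0.171 FPKM in control (adjusted p = 0.121, limma).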
